A study of Mus musculus with 7 samples.

Results

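Rab GTPase genes were taken as the protein-coding genes of the mouse annotation (GENCODE vM21) whose symbol is Rab followed by a number and an optional letter. Of 59 such genes, 38 had at least 10 counts in at least 3 libraries and were described here, among 48795 gene identifiers in the table. All 38 passed the filter on low counts and were among the 11618 genes tested. Rab proteins are small GTPases that mark the membranes of the cell and direct vesicle traffic between them. An exchange factor (GEF) loads a Rab with GTP, the loaded Rab recruits effectors such as tethers and motors, and a GTPase-activating protein (GAP) switches it off, while prenyl groups anchor it in the membrane and a dissociation inhibitor (GDI) takes it out again. In germinal centre B cells, antigen bound by the B cell receptor passes from early to late endosomes, where it is cut into peptides that are loaded on MHC class II and shown to T cells.

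The data are bulk RNA-seq of germinal centre B cells of the light zone, where they receive T cell help, sorted from mouse spleens. The 3 MIZ1KO libraries came from mice whose genotype the labels give as MIZ1KO, and the 4 Control libraries from control mice. MIZ1 is a BTB zinc finger transcription factor encoded by Zbtb17. All mice received sheep red blood cells intravenously and the spleens were taken 10 days later. The sample titles call the MIZ1KO libraries MizFF and the Control libraries eYFP, and the labels give no driver of the deletion and no strain, age or sex of the mice. The labels do not say that the replicates are separate animals, so the p-values measure the spread between these libraries. In bulk RNA, fewer cells of a type and less RNA per cell cannot be told apart.

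The libraries held 6896673 to 9482453 counts, of which genes of ribosomal RNA took 46.4% to 56.1%. Levels are given in CPM, counts scaled to the TMM-adjusted library total with ribosomal RNA included. Zbtb17 had 5.16, 3.70 and 4.5 CPM in MIZ1KO and 3.15, 3.42, 3.15 and 7.02 CPM in Control libraries (log2 fold change 0.03 ± 0.46 SE, adjusted p = 0.975 by edgeR). This is a count over the whole gene and does not check the labels, and no loss of the transcript was measured. The 5 germinal centre B cell markers summed to 635 to 645 CPM in MIZ1KO and 460 to 652 CPM in Control libraries. Light zone markers summed to 462 to 544 CPM in MIZ1KO and 403 to 589 CPM in Control, and dark zone markers to 135 to 167 CPM in MIZ1KO and 115 to 212 CPM in Control. Within these sums, Bcl6, Mef2b and Nfkbia were higher and Fas and Cd86 lower in MIZ1KO, each without overlap between genotypes. None of these genes had an adjusted p under 0.05 by edgeR. Plasma cell markers summed to 141 to 212 CPM in MIZ1KO and 161 to 316 CPM in Control, with Sdc1 at no more than 2.5 CPM. Erythroid markers summed to 60.7 to 475 CPM in MIZ1KO and 112 to 418 CPM in Control, and NK cell markers to 0.215 to 1.8 CPM in MIZ1KO and 0.393 to 5.13 CPM in Control. The 5 T cell markers summed to 1.5 to 14.0 CPM in MIZ1KO and 0 to 1.40 CPM in Control libraries. Myeloid markers summed to 2.79 to 21.6 CPM in MIZ1KO and 4.85 to 9.62 CPM in Control, with Itgam at 0 to 0.131 CPM. Lyz2, which carried most of that sum in each MIZ1KO library, had 2.04, 13.5 and 16.4 CPM in MIZ1KO and 2.75, 2.96, 3.54 and 3.51 CPM in Control libraries (log2 fold change 1.68, edgeR adjusted p = 0.0712). The share of non-ribosomal counts in gene models of the annotation's TEC class, used as a nuclear RNA index, was 0.69% ± 0.204 in MIZ1KO and 1.79% ± 0.651 in Control libraries (SD, n = 3 and 4), with no overlap. The 4 listed nuclear RNAs summed to 3340 to 5630 CPM in MIZ1KO and 8170 to 16900 CPM in Control, and Malat1 among them fell by 1.67 on the log2 scale (edgeR adjusted p = 0.015). The part of these differences in the results below was not tested. Fits that adjust for this index are named below as a description only. They cannot tell its part from that of genotype, because the highest MIZ1KO value (0.923%) was below the lowest Control value (1.02%). Estimates from that fit were also less precise for Rab1b, with an SE of 0.48 beside 0.28 without the index.

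Among the 38 Rab genes, Rab1b alone was called at adjusted p under 0.05, and it was higher in MIZ1KO. That is 2.63% of the Rab genes, beside 5.96% of all genes tested (1.9% called higher and 4.05% called lower). Among protein-coding genes, 4.14% were called, 2.08% higher and 2.06% lower. The Rab1b call was not kept in every fit, as given below. At an unadjusted p under 0.05 by edgeR, 8 Rab genes passed (21.1%), 4 higher (Rab1b, Rab4b, Rab35, Rab43) and 4 lower (Rab9, Rab12, Rab14, Rab37), beside 24.6% of all genes tested and 21.2% of the protein-coding ones. The libraries of the 2 genotypes did not overlap for 4 Rab genes (10.5%), beside 19.5% of all genes tested and 17.8% of the protein-coding ones. Of these, Rab1b, Rab4b and Rab43 were higher in MIZ1KO, where the share over all genes was 8.74%, and Rab14 was lower, where it was 10.8%. Apart from the single higher call (2.63% beside 1.9%), none of these shares was above that of all genes tested.

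The family as a whole made up 0.277% ± 0.0142 of non-ribosomal counts in MIZ1KO and 0.270% ± 0.0131 in Control libraries (SD, n = 3 and 4). Its summed level was 1380, 1460 and 1300 CPM in MIZ1KO and 1460, 1450, 1140 and 1270 CPM in Control libraries, which overlapped widely. The median log2 fold change over the 38 genes was 0.09, with 20 above 0 and 18 below, beside -0.03 over all genes and 0.03 over protein-coding genes. The median absolute log2 fold change was 0.31 for the Rab genes, 0.42 for all genes and 0.37 for protein-coding genes. Adjusted for the nuclear RNA index, the Rab median was -0.23, beside -0.06 over all genes. In that fit Rab5c, Rab7, Rab10 and Rab28, all above 0 without the index, were at -0.48 ± 0.37, -0.20 ± 0.28, -0.26 ± 0.29 and -0.47 ± 0.92 (SE).

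**Figure D1:**
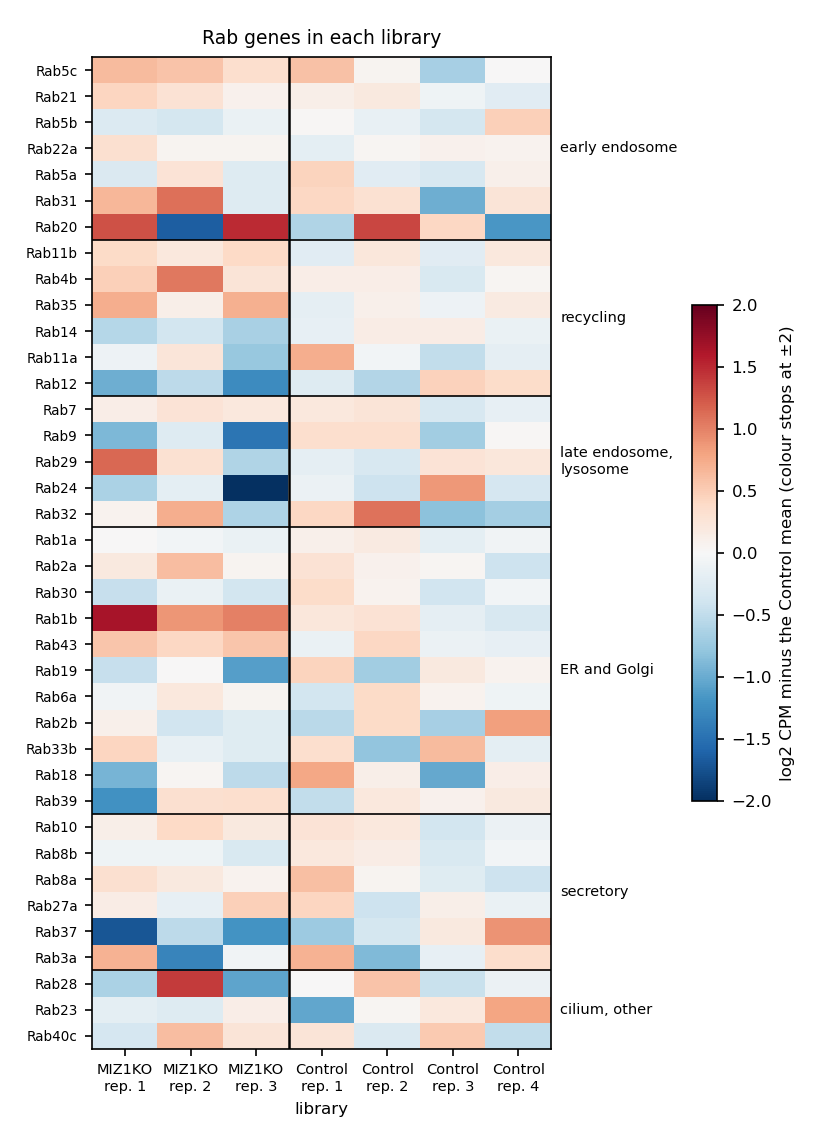
Each Rab gene in each library, as log2 CPM minus the mean log2 CPM of the Control libraries, with the 3 MIZ1KO libraries left of the 4 Control libraries and genes grouped by compartment. Rab1b is above the Control mean in all 3 MIZ1KO libraries and Rab14 below it, while most other genes vary within both genotypes.

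Rab1b, which works with its close paralogue Rab1a in transport between the endoplasmic reticulum and the Golgi, lies at chr19:5099205-5107072 on the minus strand (GRCm38, ENSMUSG00000024870). It measured 44.3, 25.9 and 28.2 CPM in the MIZ1KO libraries and 16.3, 17.0, 12.2 and 11 CPM in the Control libraries. Every MIZ1KO library was above every Control library, and MIZ1KO replicate 1 stood well above the others. The means were 32.8 ± 10 CPM in MIZ1KO and 14.1 ± 2.94 CPM in Control (SD, n = 3 and 4), a log2 fold change of 1.23 ± 0.28 (SE, 95% interval 0.65 to 1.81, adjusted p = 0.0194 by edgeR's quasi-likelihood test). These levels rest on 93 to 412 counts per library. On the log2 values that the authors deposited, Rab1b stood at 8.05, 7.53 and 7.62 in MIZ1KO and 7.12, 7.16, 6.92 and 6.84 in Control libraries, again without overlap. The edgeR call ended without MIZ1KO replicate 1 (log2 fold change 0.99, adjusted p = 0.134), without Control replicate 4 (1.17, adjusted p = 0.061) and once adjusted for the nuclear RNA index (0.61, adjusted p = 0.564). It was kept in a fit corrected for GC content and length (0.97, adjusted p = 0.0474).

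Rab1a, the more abundant of the pair per kb, was not called. It measured 116, 111 and 105 CPM in MIZ1KO and 124, 130, 100 and 109 CPM in Control libraries, and the genotypes overlapped. Its log2 fold change was -0.06 (95% interval -0.46 to 0.33, edgeR adjusted p = 0.88), and 0.44 with the GC and length correction. Per kb of exonic length, Rab1b made up 38.9%, 28.0% and 31.0% of the summed Rab1a and Rab1b level in MIZ1KO libraries, against 18%, 17.9%, 16.9% and 14.4% in Control libraries. The sum of both genes was 144 ± 14.9 CPM in MIZ1KO and 130 ± 16.2 CPM in Control (SD, n = 3 and 4). The labels do not state how reads that match both genes were shared out, so the split within the pair carries that limit. No other annotated gene shares exonic bases with Rab1b.

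The promoters of the pair are shown because Rab1b is the one called Rab gene and Rab1a is its paralogue with a level that overlapped between genotypes. Both run 5′ to 3′ from 250 bases before to 50 bases after the RefSeq transcript start (GRCm38.p6), at chr19:5106947-5107246 on the minus strand for Rab1b and chr11:20201162-20201461 on the plus strand for Rab1a. Capitals mark matches, on either strand, to the CCAAT box (CCAAT) and the GC box (GGGCGG).
Rab1b: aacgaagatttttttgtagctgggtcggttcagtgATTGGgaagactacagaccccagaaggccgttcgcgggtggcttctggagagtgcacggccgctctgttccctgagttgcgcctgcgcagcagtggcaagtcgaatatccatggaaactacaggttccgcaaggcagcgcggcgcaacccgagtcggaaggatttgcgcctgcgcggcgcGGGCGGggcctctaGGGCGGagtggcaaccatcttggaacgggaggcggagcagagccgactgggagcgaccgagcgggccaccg
Rab1a: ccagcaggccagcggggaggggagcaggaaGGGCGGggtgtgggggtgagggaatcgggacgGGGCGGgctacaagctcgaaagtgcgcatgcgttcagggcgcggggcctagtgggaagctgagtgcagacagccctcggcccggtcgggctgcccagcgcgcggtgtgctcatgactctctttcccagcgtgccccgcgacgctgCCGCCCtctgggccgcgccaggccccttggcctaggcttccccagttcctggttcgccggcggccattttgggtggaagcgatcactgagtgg
The Rab1b window holds 1 CCAAT match and 2 GC boxes, and the Rab1a window holds 3 GC boxes. Neither window holds the letters CACGTG (the E-box bound by MYC and MAX, partners of MIZ1) or TATAAA.

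RefSeq promoters were found for 34 of the 38 Rab genes (41 promoters). The GC box was in 73.2% of these windows, beside 35.7% of all 32851 promoters. CCAAT was in 51.2% of the Rab windows and 37.4% of all, CACGTG in 14.6% and 7.15%, and TATAAA in 2.44% and 13.6%. The median GC content was 63.3% in the Rab windows and 52.7% in all windows. These are descriptions of letters in a window and not of binding. The Rab genes had passed a filter on counts and the comparison promoters had not, and the part of that filter was not tested.

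**Figure D2:**
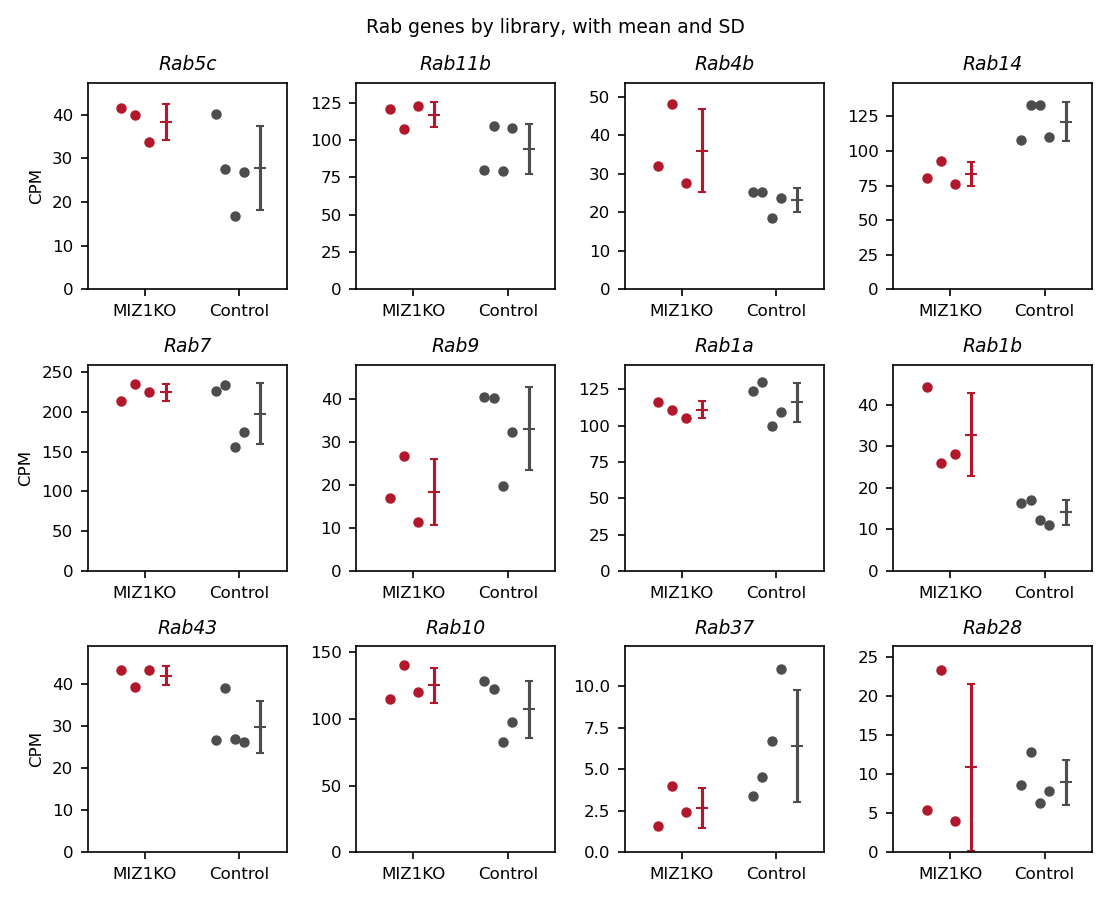
CPM in each library of the 12 Rab genes named under the selection rule, MIZ1KO (red) left of Control (grey), with mean and SD beside the points. The MIZ1KO points lie clear of the Control points for Rab1b, Rab4b and Rab14, and only narrowly for Rab43, and they overlap for the other 8 genes.

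Of the 11 Rab genes of the endoplasmic reticulum and Golgi, Rab1b was called and 10 were not. The median log2 fold change of this group was -0.06, and 4 of 11 were above 0. Rab43, which has been linked in human cells to Golgi structure and retrograde transport, measured 43.3, 39.2 and 43.1 CPM in MIZ1KO and 26.6, 39.0, 26.9 and 26.2 CPM in Control libraries. Only Control replicate 2 came near the MIZ1KO libraries, and the genotypes did not overlap by a narrow margin. This gave a log2 fold change of 0.50 ± 0.23 (SE, edgeR adjusted p = 0.181), of 0.18 with the GC and length correction and of 0.48 adjusted for the nuclear RNA index. Rab43 shares 4164 exonic bases with the gene model Gm45140 on the same strand, so the split of reads between these models is uncertain.

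Rab2a, which acts at the Golgi and in tethering of late endosomes, averaged 34.8 ± 7.39 CPM in MIZ1KO and 28.4 ± 5.48 CPM in Control (log2 fold change 0.31, edgeR adjusted p = 0.47), and its paralogue Rab2b 11.8 ± 2.13 and 14.6 ± 7.30 CPM in MIZ1KO and Control (-0.32, adjusted p = 0.642). Per kb, Rab2b made up 15.2% ± 4.01 of the pair in MIZ1KO and 21.1% ± 11.5 in Control (SD, n = 3 and 4). These shares overlapped, with 10.7% in MIZ1KO replicate 2 below the lowest Control share, 12% in replicate 1. Rab2b shares 2469 exonic bases with Gm43766 and 195 with Tox4, both on the opposite strand. Whether the counting used strand is not stated, so reads of Rab2b and these genes may not be separated. Rab30, a Golgi Rab, had 83.7 ± 10.3 CPM in MIZ1KO and 106 ± 22.4 CPM in Control (-0.34, adjusted p = 0.338 by edgeR). Rab6a, which drives retrograde traffic from endosomes and within the Golgi, had 14.4 ± 1.39 and 14.0 ± 3.11 CPM in MIZ1KO and Control (0.05, adjusted p = 0.934 by edgeR). Rab18, a Rab of the endoplasmic reticulum and lipid droplets, was at -0.54 (adjusted p = 0.403 by edgeR), and Rab19, Rab33b and Rab39 at -0.49, -0.04 and -0.09.

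The 7 Rab genes of early endosomes, where internalised receptors arrive first, were not called. Their median log2 fold change was 0.28, with 5 of 7 above 0. Rab5c, a form of the Rab5 that controls endosome fusion, was the most abundant of them per kb. It measured 41.6, 39.9 and 33.8 CPM in MIZ1KO and 40.3, 27.7, 16.8 and 26.9 CPM in Control libraries. Control replicate 1 lay among the MIZ1KO libraries and Control replicate 3 was lowest. For Rab5c the log2 fold change was 0.47 (95% interval -0.09 to 1.02, edgeR adjusted p = 0.286). Rab5a and Rab5b, the other two Rab5 forms, were at -0.10 and -0.30 (adjusted p = 0.886 and 0.544 by edgeR). Rab5c made up 88.7% ± 2.18 of the Rab5a and Rab5c level per kb in MIZ1KO and 83.6% ± 2.58 in Control, and 81.8% ± 2.74 of the Rab5b and Rab5c level in MIZ1KO and 72.2% ± 6.52 in Control (SD, n = 3 and 4). For the first of these pairs the lowest MIZ1KO share, 86.5%, was just above the highest Control share, 86.3%. For the other pair, 78.7% in MIZ1KO replicate 3 was below 79.8% in Control replicate 1.

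Rab21, an early endosome Rab that binds integrin tails, averaged 57.7 ± 6.72 CPM in MIZ1KO and 47.9 ± 6.18 CPM in Control (log2 fold change 0.28, edgeR adjusted p = 0.435). Rab22a, which acts between early and recycling endosomes, had 24.5 ± 2.64 CPM in MIZ1KO and 22.1 ± 1.92 CPM in Control (0.15, adjusted p = 0.752 by edgeR). Rab31, a relative of Rab22a, was at 0.58 (adjusted p = 0.445 by edgeR). Rab20 had 0 to 15 counts per library and was at 0.73, with a 95% interval of -1.28 to 2.75 that sets no direction.

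Among the 6 Rab genes of recycling endosomes, which return internalised receptors to the cell surface, none was called and the genes moved in both directions, 3 above and 3 below 0. Rab4b, of the Rab4 type that serves rapid recycling from early endosomes, measured 32.1, 48.1 and 27.7 CPM in MIZ1KO and 25.2, 25.2, 18.6 and 23.7 CPM in Control libraries. The genotypes did not overlap, and MIZ1KO replicate 2 stood above the rest. Its log2 fold change was 0.64 ± 0.25 (SE, 95% interval 0.12 to 1.17, edgeR adjusted p = 0.123), and it was 0.33 with the GC and length correction and 0.15 adjusted for the nuclear RNA index. Rab4a, its paralogue, had at most 2 counts in any library and was below the rule, so Rab4b held nearly all Rab4 counts in both genotypes. Rab4b shares 1280 exonic bases on the same strand with Gm21983, a gene model listed at 0 counts in every library.

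Rab14, which acts between the Golgi and early and recycling endosomes, measured 80.5, 93.0 and 76.4 CPM in MIZ1KO and 108, 133, 133 and 110 CPM in Control libraries. All 3 MIZ1KO libraries were below all 4 Control libraries. The log2 fold change was -0.53 ± 0.19 (SE, 95% interval -0.94 to -0.13, edgeR adjusted p = 0.0991), and with the correction for GC content and length it was -0.09 (adjusted p = 0.799). Adjusted for the nuclear RNA index, Rab14 was at -0.41 (adjusted p = 0.522 by edgeR). Rab11b, the most abundant of the group per kb, is a Rab of the slow recycling compartment. It measured 121, 107 and 123 CPM in MIZ1KO and 79.6, 109, 79.5 and 108 CPM in Control libraries, where Control replicates 2 and 4 reached the lowest MIZ1KO library. Its log2 fold change was 0.31 (95% interval -0.10 to 0.73, edgeR adjusted p = 0.342), and that of its paralogue Rab11a was -0.20 (adjusted p = 0.744).

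Rab35, a Rab of the plasma membrane that sends cargo into fast recycling, averaged 48.5 ± 10.9 CPM in MIZ1KO and 33.3 ± 3.99 CPM in Control (log2 fold change 0.54 ± 0.23 SE, edgeR adjusted p = 0.155), and its lowest MIZ1KO library fell within the Control range. Rab12 was counted in this group, although it has been tied to transport of the transferrin receptor to lysosomes. It averaged 4.23 ± 1.16 CPM in MIZ1KO and 8.39 ± 2.85 CPM in Control (-0.97 ± 0.42 SE, edgeR adjusted p = 0.161), with overlap between the genotypes.

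**Figure D3:**
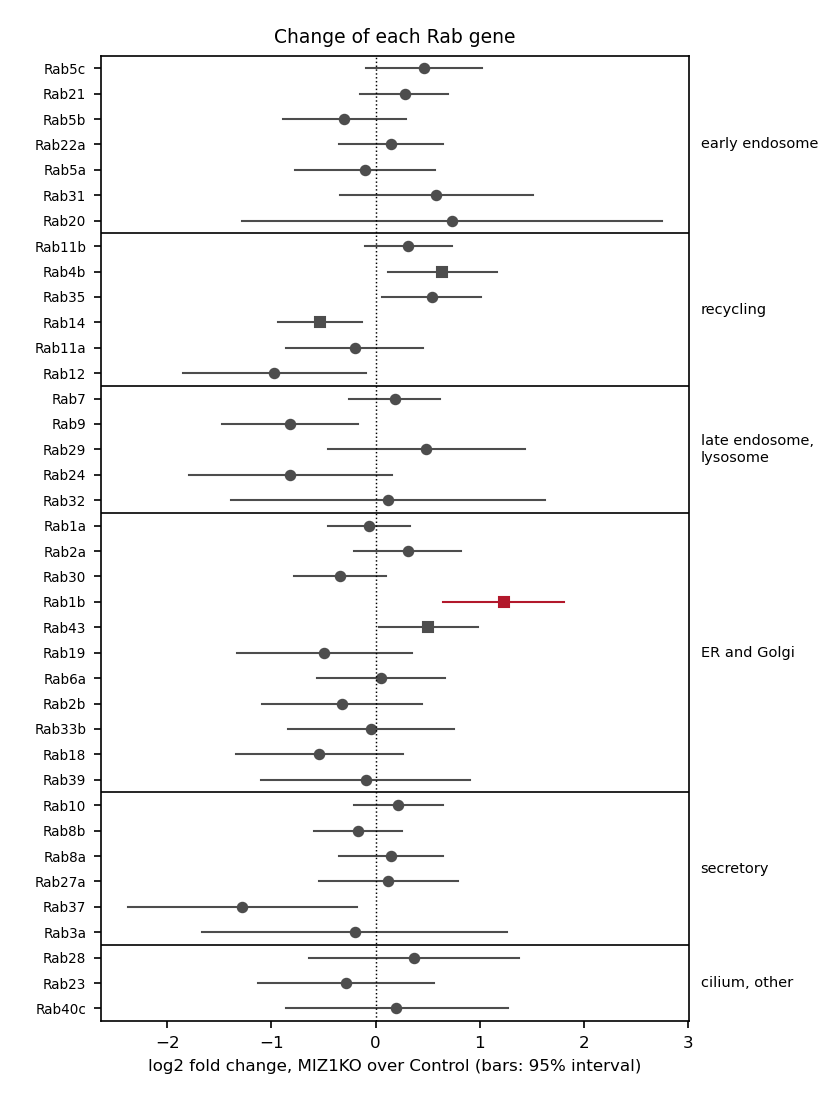
Log2 fold change (MIZ1KO over Control) of the 38 Rab genes by compartment, with 95% intervals. Rab1b (red) is the one gene called at adjusted p under 0.05, squares mark the 4 genes without overlap between the genotypes, and every compartment has genes on both sides of 0.

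None of the 5 Rab genes of late endosomes and lysosomes was called. Their median log2 fold change was 0.12, with 3 of 5 above 0. Rab7, which controls fusion of late endosomes with lysosomes, had the highest level of all Rab genes, 86.1 CPM per kb in MIZ1KO and 75.7 CPM per kb in Control. It measured 214, 235 and 225 CPM in MIZ1KO and 226, 234, 156 and 175 CPM in Control libraries. Control replicates 1 and 2 lay at the MIZ1KO level and replicates 3 and 4 below it. Rab7 had a log2 fold change of 0.19 (95% interval -0.25 to 0.62, edgeR adjusted p = 0.625).

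Rab9, which returns mannose 6-phosphate receptors from late endosomes to the Golgi, had the smallest p of this group. It measured 17.0, 26.6 and 11.4 CPM in MIZ1KO and 40.4, 40.1, 19.7 and 32.3 CPM in Control libraries. Only Control replicate 3 fell among the MIZ1KO libraries. The log2 fold change was -0.82 ± 0.31 (SE, 95% interval -1.47 to -0.17, edgeR adjusted p = 0.11), and adjusted for the nuclear RNA index it was -1.84 (adjusted p = 0.0415 by edgeR), the one fit in which Rab9 was called. With the GC and length correction it was -0.41 (adjusted p = 0.376 by edgeR). Rab24, a Rab linked to autophagy, was at -0.82 ± 0.47 (SE, edgeR adjusted p = 0.291). It shares 1258 exonic bases with Prelid1 on the opposite strand, and the labels do not state whether the counting used strand, so reads of Rab24 and Prelid1 may not be separated. Prelid1 itself was at 0.84 (adjusted p = 0.0367 by edgeR). Rab29 and Rab32, both tied to lysosome-related organelles, were at 0.48 and 0.12 (adjusted p = 0.547 and 0.938 by edgeR).

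The 6 Rab genes of secretory and surface-directed traffic had a median log2 fold change of -0.02, 3 were above 0 and none was called. Rab10, which acts in exocytic traffic to the plasma membrane, was the most abundant of them per kb. It measured 115, 140 and 120 CPM in MIZ1KO and 128, 122, 82.2 and 97.2 CPM in Control libraries, with Control replicates 1 and 2 among the MIZ1KO libraries. Its log2 fold change was 0.22 (95% interval -0.21 to 0.65, edgeR adjusted p = 0.539). Rab8a and Rab8b, close relatives of Rab10, were at 0.15 and -0.17 (adjusted p = 0.743 and 0.642 by edgeR), and Rab8b made up 55.7% ± 1.11 of the pair per kb in MIZ1KO and 61.7% ± 5.25 in Control (SD, n = 3 and 4).

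Rab37, a secretory granule Rab, had the lowest fold change of the family. It measured 1.61, 4 and 2.41 CPM in MIZ1KO and 3.41, 4.51, 6.69 and 11 CPM in Control libraries. MIZ1KO replicate 2 exceeded the lowest Control library, so the genotypes overlapped. The log2 fold change was -1.28 ± 0.52 (SE, 95% interval -2.38 to -0.18, edgeR adjusted p = 0.142) from 15 to 110 counts per library, and it was not called. It was -0.79 without Control replicate 4, -1.70 without MIZ1KO replicate 2 and -0.16 adjusted for the nuclear RNA index. Rab27a, which docks lytic and secretory granules, had 13.1 ± 2.91 CPM in MIZ1KO and 11.8 ± 3.01 CPM in Control (0.12, adjusted p = 0.854 by edgeR). Rab3a, the synaptic vesicle Rab, had 4 to 22 counts per library and was at -0.20.

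In the group of cilium Rabs and others, Rab28 was highest per kb and had the smallest p. It measured 5.48, 23.3 and 4.02 CPM in MIZ1KO and 8.66, 12.9, 6.30 and 7.92 CPM in Control libraries. MIZ1KO replicate 2 was above all Control libraries and the other two MIZ1KO libraries were below them. The log2 fold change was 0.37 ± 0.48 (SE, edgeR adjusted p = 0.685), and it turned to -0.80 without MIZ1KO replicate 2. Rab23, a negative regulator of hedgehog signalling, was at -0.28 (adjusted p = 0.716 by edgeR), and Rab40c, whose protein carries a SOCS box, was at 0.20 (adjusted p = 0.85 by edgeR).

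**Figure D4:**
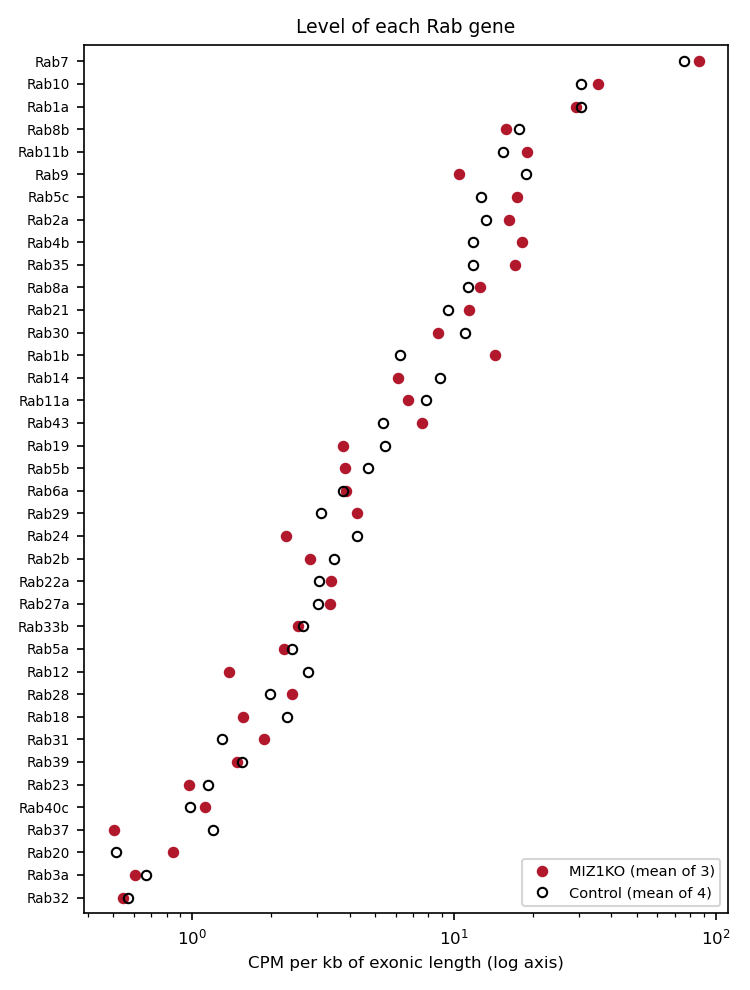
Mean level of each Rab gene in CPM per kb of exonic length (log axis), MIZ1KO as filled red and Control as open circles. The levels run from 80.1 CPM per kb for Rab7 to 0.560 for Rab32 over all 7 libraries, and the order of the most abundant genes is led by Rab7, Rab10 and Rab1a.

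Per kb, Rab7, Rab10 and Rab1a held the highest levels over all 7 libraries (80.1, 32.7 and 29.9 CPM per kb). Rab10 and Rab1a could not be ordered, since Rab10 had 35.6 CPM per kb in MIZ1KO and 30.6 in Control, and Rab1a 29.2 in MIZ1KO and 30.5 in Control. The lowest levels over all 7 libraries were 0.643 and 0.560 CPM per kb for Rab3a and Rab32. The 3 genes that only just met the rule were Rab20, Rab32 and Rab3a, whose third-highest counts were 11, 12 and 18, and the nearest below it were Rab39b, Rab6b and Rab26 with 7, 5 and 4. Of the 21 Rab genes below the rule, 7 (Rab3c, Rab9b, Rab15, Rab17, Rab34, Rab38 and Rab40b) were listed at 0 in all libraries, and no other had more than 26 counts in any library.

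GC content of the transcripts moved with the fold changes. Over the 38 Rab genes, log2 fold change and GC content correlated with a Spearman rho of 0.37 (Pearson r = 0.32), and over 9805 protein-coding genes with a rho of 0.46 (r = 0.41). These correlations run across genes that share the same 7 libraries and are given as a description. Of the 19 Rab genes with a GC content above 49%, 13 were above 0 (median log2 fold change 0.20), and of the other 19, 7 were above 0 (median -0.09). Protein-coding genes at GC above 49% had a median of 0.25 and the rest -0.17. Rab1b has a GC content of 56.8%, Rab4b 58.4% and Rab43 55.8%, while Rab14 has 42.9% and Rab1a 41.7%. Once corrected for GC content and length, the Rab median was 0.28 beside 0.09 over all genes. Whether GC content has a part in the differences of single Rab genes was not tested beyond that fit.

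**Figure D5:**
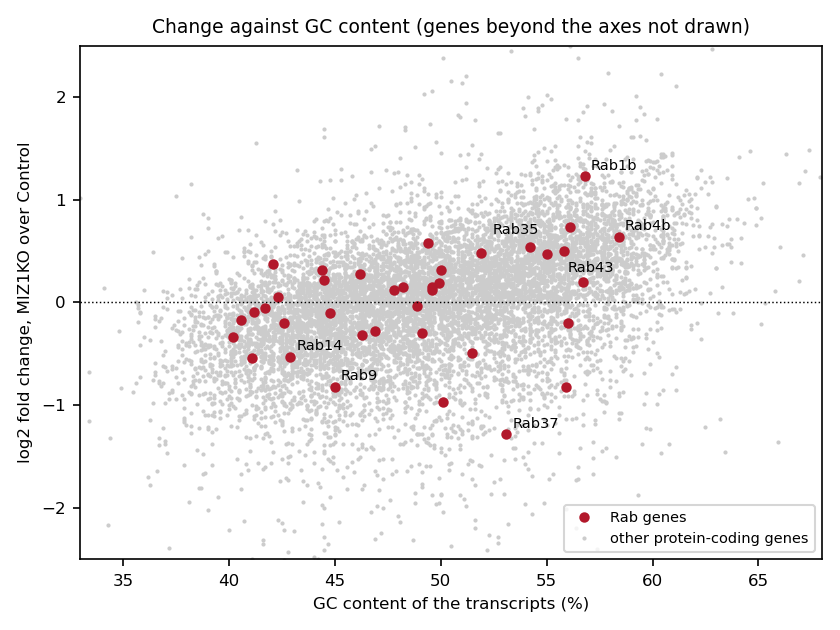
Log2 fold change (MIZ1KO over Control) against GC content of the transcripts in percent, with the 38 Rab genes in red and other protein-coding genes in grey. Rab genes run along the slope of the other genes, and Rab1b lies on the upper side of it.

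The proteins that run the Rab cycle were described from 154 listed genes, of which 125 were tested. Of these, 1 was called higher and 2 lower, beside 1.9% called higher and 4.05% called lower among all genes tested. Among protein-coding genes, 2.08% were called higher and 2.06% lower. The median log2 fold change of the 125 genes was 0.04. All 3 called genes belong to the 39 tested Rab effectors. Rabep2, a partner of the Rab5 exchange factor on early endosomes, measured 18.8, 29.9 and 32.7 CPM in MIZ1KO and 11.1, 11, 12.9 and 9.92 CPM in Control libraries. No MIZ1KO library overlapped the Control libraries, and the log2 fold change was 1.26 ± 0.28 (SE, edgeR adjusted p = 0.0189). The Rabep2 call ended without MIZ1KO replicate 3 (log2 fold change 1.13, adjusted p = 0.0646 by edgeR) and without Control replicate 2 (1.25, adjusted p = 0.0524) or 4 (1.25, adjusted p = 0.0568). With the GC and length correction the log2 fold change was 0.78 (edgeR adjusted p = 0.114). Adjusted for the nuclear RNA index it was larger and less precise, 1.70 ± 0.50 (SE, edgeR adjusted p = 0.0765).

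Rufy2, an endosomal protein with RUN and FYVE domains, measured 12.9, 15.6 and 18.7 CPM in MIZ1KO and 21.9, 23.8, 44.4 and 42.9 CPM in Control libraries. Its MIZ1KO libraries were all below the Control libraries, and the log2 fold change was -1.10 ± 0.30 (SE, edgeR adjusted p = 0.0398). Appl2, an adaptor that binds Rab5 on early endosomes, measured 2.15, 2.40 and 1.93 CPM in MIZ1KO and 3.41, 7.16, 9.84 and 9.82 CPM in Control libraries. Again there was no overlap, and Control replicate 1 was nearest to MIZ1KO (log2 fold change -1.80 ± 0.50 SE, edgeR adjusted p = 0.0434). Both calls ended when any single library other than Control replicate 1 was left out (adjusted p by edgeR 0.0541 to 0.2 for Rufy2 and 0.085 to 0.166 for Appl2), while the log2 fold changes stayed between -1.23 and -0.90 for Rufy2 and between -1.83 and -1.58 for Appl2. The GC and length correction also ended both calls, at -0.83 for Rufy2 and -1.70 for Appl2 (adjusted p = 0.0878 and 0.0615 by edgeR). So did limma-voom, the older edgeR fit and the deposited log2 values. Adjusted for the nuclear RNA index, the log2 fold changes were 0.03 for Rufy2 and -0.43 for Appl2.

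None of the 8 genes of prenylation and membrane extraction was called. Rabggta, a subunit of the enzyme that attaches geranylgeranyl groups to Rabs, measured 7.31, 5.40 and 9.81 CPM in MIZ1KO and 2.49, 2.64, 5.38 and 4.01 CPM in Control libraries, with the genotypes just apart. The log2 fold change was 0.99 ± 0.44 (SE, edgeR adjusted p = 0.17), with 0.66 under the GC and length correction and 2.19 adjusted for the nuclear RNA index. Chm, the escort protein that presents Rabs to that enzyme, was at -0.39 (adjusted p = 0.362 by edgeR) and at 0.33 with the GC and length correction.

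None of the 45 tested GEFs and 29 tested GAPs was called, with medians of 0 and 0.15. Dennd5b, a DENN domain protein, measured 108, 93.3 and 152 CPM in MIZ1KO and 160, 173, 257 and 213 CPM in Control libraries (log2 fold change -0.77 ± 0.23 SE, edgeR adjusted p = 0.0549). Dennd6a, an exchange factor of Rab14 in human cells, measured 29.3, 32.5 and 24.3 CPM in MIZ1KO and 44.9, 49.2, 42.4 and 53.1 CPM in Control libraries (-0.72 ± 0.22 SE, adjusted p = 0.06). For both genes all MIZ1KO libraries were below all Control libraries. The genotypes did not overlap for 8 of the 45 GEFs and 3 of the 29 GAPs, beside 19.5% of all genes tested. Among the GEFs, Dennd1b and Rab3gap1 were also lower without overlap, while Rin3, Sbf1, Trappc10 and Trappc4 were higher. Of the 45 GEFs, 22 were above 0 and 23 below. With the GC and length correction, Dennd5b was at -0.22 and Dennd6a at -0.30 (adjusted p = 0.489 and 0.414 by edgeR). Adjusted for the nuclear RNA index, Dennd5b was at 0.01 and Dennd6a at -0.85 (adjusted p = 0.994 and 0.229 by edgeR). Tbc1d17, a TBC domain GAP, measured 27.4, 17.8 and 33.5 CPM in MIZ1KO and 39.7, 37.6, 61.3 and 54.1 CPM in Control libraries, also without overlap (-0.90 ± 0.26 SE, edgeR adjusted p = 0.0508). It was called with the GC and length correction, at -1.30 (edgeR adjusted p = 0.00523), and was at -0.17 adjusted for the nuclear RNA index. Rabgap1l, another TBC domain protein, was at -0.63 (adjusted p = 0.0933 by edgeR) and at 0.01 with the GC and length correction. Dennd5b, Dennd6a, Tbc1d17 and Rabgap1l passed the threshold when Control replicate 1 was left out (adjusted p = 0.0168, 0.0372, 0.022 and 0.0192 by edgeR). DESeq2 called Dennd5b, Dennd6a and Tbc1d17 (adjusted p = 0.0303, 0.0326 and 0.0359), and scaling by library totals called Dennd5b and Tbc1d17 (adjusted p = 0.0459 and 0.0449 by edgeR). The fit without Control replicate 1 called 11.9% of all genes tested and DESeq2 9.64%, beside 5.96% in the main fit.

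Of the 4 tested Rab-like genes none was called. Ift22 and Ift27, GTPases of intraflagellar transport, averaged 34.6 ± 7.75 and 10.1 ± 3.83 CPM in MIZ1KO and 24.7 ± 5.09 and 5.95 ± 3.14 CPM in Control libraries (SD, n = 3 and 4). Their log2 fold changes were 0.49 and 0.78 (adjusted p = 0.228 and 0.265 by edgeR). Ift27 was at 1.22 without Control replicate 1 and at 0.50 without MIZ1KO replicate 2. Adjusted for the nuclear RNA index, Ift22 was at -0.01 and Ift27 at -0.18.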

How the data were processed

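The deposited table holds estimated counts per gene for 7 libraries, as the authors made them. STAR 2.5.2, RSEM 1.3.0, DESeq2 1.18.1, R 3.4.3 and the build GRCm38 are named, per the submitters' processing notes, with no role or order. The sources used here do not state the annotation release, strand setting or treatment of multi-mapping reads. A matching table holds log2 values that the authors deposited, whose function is not given either, and it served as an alternative. Of the deposited estimated counts above, 6.61% were not whole and were rounded. Of 48795 identifiers, 48435 matched a symbol in GENCODE vM21 or in a separate list of gene names. TMM scaling, filterByExpr and edgeR 4.0.16's quasi-likelihood test (R 4.3.3) were run over 11618 genes, two-sided, with Benjamini-Hochberg adjustment and a threshold of 0.05. The procedure was tested on simulated data. Alternatives used limma 3.58.1, DESeq2 1.42.0, other scalings and filters, a GC and length correction, the log2 share of TEC gene models as a covariate, and leaving out each library. Shared replicate numbers were checked as pairs. No 2 libraries of the same genotype agreed within sampling noise (lowest chi-square per degree of freedom 10.5).

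The members and gene lists were chosen with earlier results of these data known. Genes with values in every library are Rab genes that were called, did not overlap between genotypes, or were the most abundant per kb or of smallest p in their compartment. From each list of Rab regulators, called genes are named, or the 2 of smallest p. One marker list is not reported here.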

Additional observations from a re-analysis of the deposited data

Results flagged for a closer look

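In the 4 Control libraries, 1 library lay far from the others for 5 of 50 genes checked (the Rab genes, the named regulators and Zbtb17), where chance alone gives about 5% of such groups. Rab31 had 2.23 CPM in Control replicate 3 and 5.61 to 6.30 CPM in the other Control libraries. Rab24 had 14.8 CPM in Control replicate 3 and 5.91 to 7.34 CPM in the others. Rab43 had 39.0 CPM in Control replicate 2, beside 26.2 to 26.9 CPM in the others. Ift27 stood at 10.6 CPM in Control replicate 1 and at 4.01 to 4.98 CPM in the others. Zbtb17 stood at 7.02 CPM in Control replicate 4 and at 3.15 to 3.42 CPM in the others.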

How the results depend on the processing

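The 12 named Rab genes under 19 alternatives gave 228 values, of which 218 kept their direction and their side of the threshold. Of these genes only Rab1b was called, so for the others keeping that side meant staying uncalled. Rab1b remained the one Rab gene called under all alternatives except 3, the nuclear RNA index, where Rab genes called higher numbered 0 and called lower 1 (Rab9), and the 2 left-out libraries named above. Leaving out each library gave 0 to 1 Rab genes called higher and 0 lower, and medians over Rab genes of 0.01 to 0.12. That median was 0.28 with the GC and length correction and -0.23 with the nuclear RNA index, beside 0.09 and -0.06 over all genes. Requiring 10 counts in all 7 libraries left 35 Rab genes, and 1 count in 3 libraries gave 45.

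Of Rab regulators, 1 was called higher and 2 lower. Called higher were 0 with the GC correction, 0 with the nuclear RNA index, and 0 to 5 without single libraries. Called lower were 4 with library totals, 5 with DESeq2, 0 with limma-voom, 0 with the older edgeR fit, 1 with no filter on low counts, 0 on the deposited log2 values, 1 with the GC correction (Tbc1d17), 0 with the nuclear RNA index and 0 to 9 without single libraries. The share of all genes called in either direction was 5.96% in the main fit and varied too. It was 5.67% with library totals, 9.64% with DESeq2, 2.94% with limma-voom and 4.03% with the older edgeR fit. It was 2.93% with no filter, 4.73% on the deposited log2 values, 3.27% with the GC correction and 2.55% with the nuclear RNA index. Without single libraries it was 0.324% to 11.9%. The number of all genes called ranged from 39 without MIZ1KO replicate 1 to 1350 without Control replicate 1, beside 692.

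Directions turned with the GC correction for Rab1a (0.44), Chm (0.33) and Rabgap1l (0.01). They turned with the nuclear RNA index for Rab10 (-0.26), Rab28 (-0.47), Rab5c (-0.48), Rab7 (-0.20), Dennd5b (0.01), Ift22 (-0.01), Ift27 (-0.18) and Rufy2 (0.03), and Rab28 ranged from -0.80 without MIZ1KO replicate 2 to 0.75 without MIZ1KO replicate 1. The cause of these changes was not tested, and the fit with the nuclear RNA index cannot tell that index from genotype.

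Libraries with the same replicate number correlated at 0.02, 0.07 and 0.16 in their deviations, and those with different numbers at -0.16 to 0.13. Deviations sum to 0 within each genotype, so this check cannot settle whether the numbers pair the libraries. With replicate number as a block, which drops Control replicate 4, Rab1b kept its call (adjusted p = 0.0248 by edgeR), and 2 regulators were called higher and 0 lower. Rab20, Rab32 and Rab3a rest on so few counts that only large differences were detectable at this depth.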
